A study of Homo sapiens with 6 samples.

Results

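The genes described here encode the cytochrome P450 enzymes of families CYP1 to CYP4, the UDP-glucuronosyltransferases (UGT), the cytosolic sulfotransferases (SULT) and the glutathione S-transferases (GST), which together carry out most of the chemistry by which liver cells handle drugs and other foreign compounds. They were chosen by gene symbol, as every gene of these families, pseudogenes left out, that had at least 1 probe set with a single symbol on the array. This gave 62 of 19775 genes. They comprised 31 CYP, 7 UGT, 8 SULT and 16 GST genes. All 62 symbols were found in RefSeq, where 60 were protein coding, CYP1B1-AS1 was a non-coding RNA antisense to CYP1B1, and GSTT2 was listed as a transcribed pseudogene. Genes of these families without a probe set of a single symbol were not analysed here as genes.

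The cells were MHCC97H, 1 established human hepatocellular carcinoma (HCC) line, heated at 47 °C to give residual cells. POSTN cells received 100 ng/mL recombinant periostin, a secreted matrix protein, for 24 h (3 arrays), and control cells received 0 ng/mL (3 arrays), so that heat was common to both groups. Total RNA of each sample was read on 1 Affymetrix Human Genome U133 Plus 2.0 array. The labels number the arrays of each condition 1 to 3 but do not say whether the samples came from separate cultures, so p-values measure only the spread between these samples, which may be technical.

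Foreign compounds are handled in steps. In phase I, CYP enzymes in the endoplasmic reticulum, fed with electrons by a reductase, put an oxygen onto the compound. In phase II, UGT, SULT and GST enzymes couple it, or a reactive group on it, to glucuronic acid, sulfate or glutathione, which makes it soluble enough to leave the cell. Hepatocytes express many of these genes at high levels, and hepatoma lines are known to have lost part of them.

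In these cells, 37 of the 62 genes lay above background, and none of the 62 passed the test between POSTN and control cells. Among the genes above background, the largest differences were between the arrays numbered 1 and the arrays numbered 2 and 3, within each condition. GSTA1, the main alpha-class glutathione transferase of liver, UGT1A6, which glucuronidates simple phenols, and CYP2B6, which oxidises bupropion and efavirenz, were 2.66, 2.47 and 2.37 times as bright on the arrays numbered 1, while GSTO1, an omega-class enzyme that reduces dehydroascorbate, was lower there. In a fit over all probe sets whose prior variance did not follow the signal, none of these number differences passed.

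The bases before the RefSeq start sites of these 4 genes are shown because they are the 3 members with the largest called rises and the member with the largest called fall on the arrays numbered 1. All are from GRCh38.p14, 5′ to 3′ on the gene's strand, and UGT1A6 has 2 start sites in the table. Capitals mark 3 motifs searched on both strands: GCGTG (the core of the xenobiotic response element, bound by the AHR:ARNT dimer), TGACNNNGC (the core of the antioxidant response element) and GTTAAT (an HNF1 half-site), none of which overlapped in these windows.
GSTA1, chr6:52803817-52804066, minus strand: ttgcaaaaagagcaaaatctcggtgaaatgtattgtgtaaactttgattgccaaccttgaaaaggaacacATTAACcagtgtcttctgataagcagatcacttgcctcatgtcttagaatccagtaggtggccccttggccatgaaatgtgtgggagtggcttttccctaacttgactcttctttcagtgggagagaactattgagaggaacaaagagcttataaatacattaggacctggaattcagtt
UGT1A6 (start site 1), chr2:233691452-233691701, plus strand: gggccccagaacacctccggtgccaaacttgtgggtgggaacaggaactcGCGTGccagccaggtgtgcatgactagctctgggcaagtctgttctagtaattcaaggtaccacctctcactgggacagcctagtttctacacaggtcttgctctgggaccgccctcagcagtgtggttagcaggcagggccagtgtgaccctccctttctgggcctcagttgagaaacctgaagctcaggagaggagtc
UGT1A6 (start site 2), chr2:233692640-233692889, plus strand: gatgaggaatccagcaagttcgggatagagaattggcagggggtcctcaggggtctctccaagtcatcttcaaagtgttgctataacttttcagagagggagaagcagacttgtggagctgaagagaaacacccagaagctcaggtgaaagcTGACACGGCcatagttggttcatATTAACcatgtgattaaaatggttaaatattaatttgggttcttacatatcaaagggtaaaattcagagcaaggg
CYP2B6, chr19:40991032-40991281, plus strand: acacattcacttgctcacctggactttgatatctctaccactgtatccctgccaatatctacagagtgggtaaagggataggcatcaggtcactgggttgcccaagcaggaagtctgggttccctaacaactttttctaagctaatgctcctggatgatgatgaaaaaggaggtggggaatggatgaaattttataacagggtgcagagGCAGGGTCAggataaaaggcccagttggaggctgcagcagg
GSTO1, chr10:104254642-104254891, plus strand: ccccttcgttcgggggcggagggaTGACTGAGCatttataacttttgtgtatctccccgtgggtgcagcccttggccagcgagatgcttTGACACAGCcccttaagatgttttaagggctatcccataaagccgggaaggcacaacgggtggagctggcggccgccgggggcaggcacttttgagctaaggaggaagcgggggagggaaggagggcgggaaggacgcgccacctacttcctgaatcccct

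The HNF1 half-site stood in the GSTA1 window and at the second UGT1A6 start site, the xenobiotic core at the first UGT1A6 start site, and the antioxidant core at the second UGT1A6 start site, once in CYP2B6 and 2 times in GSTO1. Over RefSeq's 35116 human windows from 250 bases before to 50 bases after a start site, 36.5% held GCGTG, 13.3% held TGACNNNGC and 6.88% held GTTAAT. Of the 56 windows of 50 member genes, 17, 12 and 6 held them. Among the 9 genes with a called number 1 difference that had a window, TGACNNNGC stood in 6 (CYP2B6, CYP4V2, GSTA4, GSTO1, GSTP1 and UGT1A6). GCGTG (CYP4V2 and UGT1A6) and GTTAAT (GSTA1 and UGT1A6) stood in 2 each. These counts are by gene, with a match in any window of the gene counted, so they cannot be set against the shares by window. CYP1B1 and SULT1A1 had no entry. A match describes the letters only.

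The arrays had median log2 signals of 5.80 to 5.95. As no detection calls came with the signals, background was taken as the 95th percentile of the mean log2 signals of 107 olfactory receptor probe sets, which was 5.98. Each array had 47.7% to 49.7% of its probe sets above this level. Markers of liver cells were read in part. Of 13 hepatocyte and hepatoma markers 8 were above background, among them ALB, AFP, APOB and TTR, and APOA1, APOA2, SERPINA1, EPCAM and GPC3 were within it. Of 9 stellate cell and fibroblast markers 4 were above background (COL1A1, DCN, LUM and RGS5) and ACTA2, PDGFRB, COL1A2, COL3A1 and POSTN were within it. The endothelial markers PECAM1 and KDR, the leukocyte marker CD3E and the cholangiocyte markers KRT7, KRT19 and SOX9 were above it. CDH5, VWF and STAB2 of the endothelial list and PTPRC, CD14, CD163 and MS4A1 of the macrophage and leukocyte list were within it.

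Above background were 37 of the 62 genes (59.7%), against 58.4% of all 19775 genes at their brightest probe set. On all 6 arrays, 31 were above the level and 16 were below it. By enzyme type, 18 of 31 CYP genes, 4 of 7 UGT genes, 2 of 8 SULT genes and 13 of 16 GST genes were above it. The brightest probe set was used for each gene, and signals of different probe sets cannot be set against each other as amounts of RNA. These families hold close paralogs, and 25 of the 62 probe sets carry a name ending that the maker gives to probe sets that may read related transcripts.

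**Figure D1:**
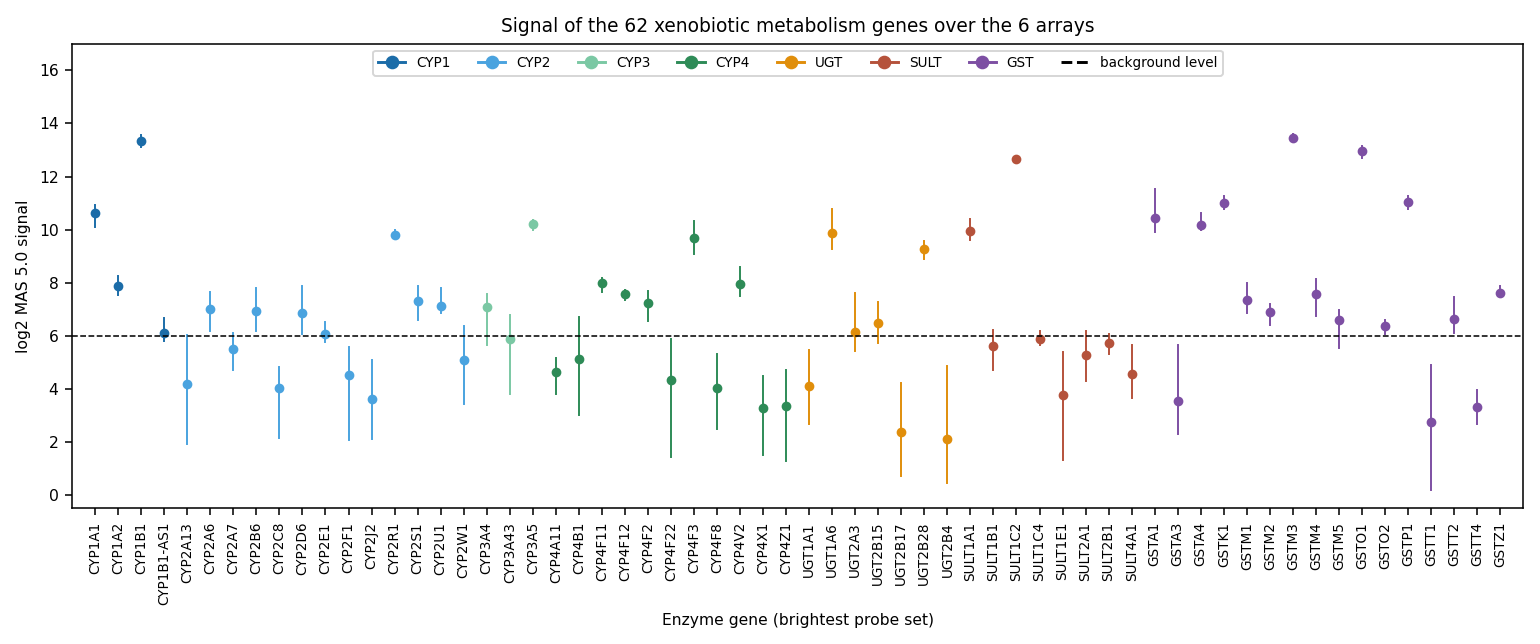
Mean log2 MAS 5.0 signal of the 62 genes at their brightest probe set (points), with the lowest and highest of the 6 arrays (lines) and the background level of 5.98 (dashed). Of the 62 genes 37 have a mean above the level, and the lines are longer below it than above it. Heights of different genes are not comparable as amounts of RNA.

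POSTN was compared with control to ask whether the exposure moved any of these enzymes. In limma with Benjamini-Hochberg adjustment over 54613 probe sets, 0 of the 62 genes passed an adjusted p under 0.05, as did 0.0% of all probe sets, and the lowest adjusted p was 1.0. At an unadjusted p under 0.05, limma gave 1 of the 62 genes, against 2.48% of all genes. The methods' t-test gave 2 members unadjusted and 0 after Benjamini-Hochberg adjustment. Among the 37 genes above background, the log2 difference between POSTN and control ranged from -0.51 (CYP4F2) to 0.43 (GSTM1), with 18 above 0 and 19 below. Its median was -0.013, against -0.0078 for the 11550 genes above background. For 21 of the 37 genes the 95% interval of the difference lay within a 2-fold change in either direction, and for the others the arrays left a larger change possible. The median standard error was 0.29 for the genes above background and 0.91 for those within it.

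**Figure D2:**
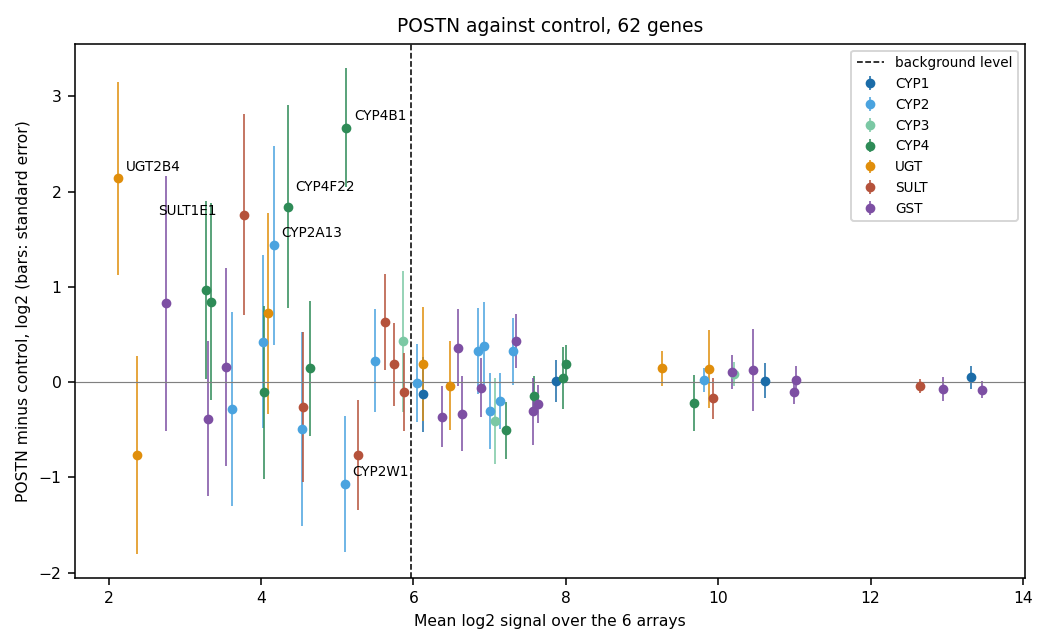
Log2 difference between POSTN and control (vertical, bars are standard errors, n = 3 arrays each) against the mean log2 signal over the 6 arrays (horizontal) for the 62 genes, coloured by family. To the right of the background level (dashed, 5.98) the differences lie between -0.51 and 0.43, and to its left they spread up to 2.67 (CYP4B1, whose control arrays were below background).

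The CYP1 genes, which the aryl hydrocarbon receptor AHR induces, were all above background at their brightest probe set. The other probe sets of CYP1A2 (207609_s_at, mean 4.19) and CYP1B1-AS1 (233410_at, mean 3.89) were within it. CYP1A1, which oxidises polycyclic aromatic hydrocarbons, had log2 signals of 10.64, 10.66 and 10.55 in POSTN cells and 10.95, 10.09 and 10.76 in control cells. CYP1B1, which hydroxylates estradiol, had 13.20, 13.45 and 13.40 in POSTN cells and 13.10, 13.55 and 13.25 in control cells. For both the POSTN arrays lay within the range of the control arrays. CYP1A2, the caffeine demethylase, differed by 0.02 (SE 0.22) on the log2 scale between POSTN and control, and CYP1B1-AS1 by -0.13 (SE 0.39). The 95% interval of CYP1B1 ran from -0.22 to 0.32.

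Of the 13 CYP2 genes 7 were above background at their brightest probe set. Other probe sets of some of these were within it, such as 217468_at of CYP2D6 (mean 4.08). So were 207244_x_at (4.07) and 214320_x_at (4.93) of CYP2A6, and every other CYP2E1 probe set. CYP2B6 had 7.78, 7.01 and 6.57 in POSTN cells and 7.74, 6.32 and 6.18 in control cells. CYP2D6, which handles codeine and many antidepressants, had 6.66, 7.90 and 6.48 in POSTN cells and 7.35, 6.65 and 6.05 in control cells. The conditions overlapped for both, with differences of 0.38 (SE 0.46, or 0.27 with the number as a block) for CYP2B6 and 0.33 (SE 0.45, or 0.36 with the block) for CYP2D6. CYP2B6 was higher in POSTN cells in all 3 pairs of the same number at this probe set, 206755_at. Its 95% interval with the block ran from -0.22 to 0.97. The other CYP2B6 probe set, 217133_x_at, differed in the opposite direction (-0.37), as did 206754_s_at, which also lists the pseudogene CYP2B7P (-0.26). CYP2R1, the vitamin D 25-hydroxylase, was measured more tightly, at 9.77, 9.86 and 9.87 in POSTN cells and 9.80, 9.64 and 9.98 in control cells, with a 95% interval of the difference from -0.25 to 0.30. CYP2A6, which oxidises nicotine and coumarin, differed by -0.30 (SE 0.40), CYP2S1 by 0.32 (SE 0.35) and CYP2U1, a fatty acid hydroxylase, by -0.20 (SE 0.29). CYP2E1, the ethanol-oxidising enzyme, averaged 6.05 ± 0.41 in POSTN cells and 6.06 ± 0.28 in control cells (SD, n = 3 each), next to the background level. CYP2C8, which oxidises paclitaxel, was within background at 4.25 ± 0.48 in POSTN cells and 3.82 ± 1.44 in control cells.

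In the CYP3 family, whose CYP3A4 metabolises more drugs than any other CYP of adult liver, 2 of 3 genes were above background at their brightest probe set. Of the 5 CYP3A4 probe sets, 208367_x_at (mean 3.90), 210726_at (4.26) and 205998_x_at (5.64) were within it. CYP3A4 had 7.56, 7.38 and 5.67 in POSTN cells and 7.29, 7.39 and 7.15 in control cells. POSTN array 3 was below the background level, and the other POSTN arrays were close to the control arrays. CYP3A5 had 10.38, 10.27 and 10.12 in POSTN cells and 9.98, 10.19 and 10.33 in control cells, with a 95% interval of the difference from -0.19 to 0.37. CYP3A43 was within background.

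Of the 11 CYP4 genes, most of which hydroxylate fatty acids and eicosanoids, 5 were above background. CYP4F2, which also oxidises vitamin K, had 7.48, 6.55 and 6.86 in POSTN cells and 7.68, 7.57 and 7.17 in control cells. This was the largest negative difference among the 37 genes above background (-0.51, SE 0.30, or 0.25 with the number as a block). The conditions overlapped, and each POSTN array was below the control array of its number. CYP4F3, which inactivates leukotriene B4, had 10.21, 9.40 and 9.09 in POSTN cells and 10.33, 9.41 and 9.63 in control cells. It differed by -0.22 (SE 0.29, or 0.11 with the number as a block). CYP4F11, CYP4F12 and CYP4V2 differed by 0.19, -0.14 and 0.04, each with overlap.

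CYP4B1, a P450 best known from lung, was the gene that met the study's thresholds (an unadjusted p under 0.05 with a fold change over 2 or under 0.5). Its probe set 1555497_a_at had log2 signals of 6.71, 6.13 and 6.52 in POSTN cells and 4.70, 3.63 and 3.02 in control cells. All 3 POSTN arrays were above the background level of 5.98 and all 3 control arrays below it. With the control arrays raised to that level POSTN cells were at least 1.39-fold higher, and the fitted difference on the values as deposited was larger (log2 2.67, SE 0.62, unadjusted p = 0.0016 in limma, adjusted p = 1.0 after Benjamini-Hochberg). The other CYP4B1 probe set, 210096_at, was dim, with a mean of 2.86, and differed in the opposite direction (-2.72), so that the median over both was -0.025. On log2(signal + 50), which damps dim signals, the difference of 1555497_a_at was 1.08. So 1 of 62 genes was higher and 0 lower at the study's thresholds, against 1.15% higher and 0.915% lower of all genes. Without control array 1 the count was 3 (CYP2A13 and CYP4F22 added), without POSTN array 2 it was 2 (UGT2B4 added), and without control array 2 it was 2 (SULT1E1 added). Each of the added genes had a mean within background.

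Among the UGT genes, UGT1A6 had 10.71, 9.76 and 9.36 in POSTN cells and 10.78, 9.37 and 9.27 in control cells. Array 1 was the highest of each condition, and the conditions overlapped. UGT2B28, which glucuronidates steroids, had 9.20, 9.53 and 9.28 in POSTN cells and 8.90, 9.58 and 9.09 in control cells. UGT2B15, which acts on androgens, differed by -0.04 (SE 0.47) and UGT2A3 by 0.19 (SE 0.60). UGT1A1, the bilirubin-conjugating enzyme, was within background at its own probe set, at 4.45 ± 1.53 in POSTN cells and 3.73 ± 1.52 in control cells (SD, n = 3 each). UGT2B4 did not overlap between POSTN (3.27, 1.44 and 4.88) and control (1.29, 1.43 and 0.46), with all 6 arrays below the background level.

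Of the SULT genes only SULT1A1 and SULT1C2 were above background. SULT1A1, the main phenol sulfotransferase, had 10.29, 9.60 and 9.66 in POSTN cells and 10.41, 9.81 and 9.84 in control cells. Each POSTN array was slightly below the control array of its number, and the conditions overlapped (-0.17, SE 0.21, or 0.08 with the number as a block). With the block its 95% interval ran from -0.35 to 0.01. SULT1C2 had 12.70, 12.60 and 12.60 in POSTN cells and 12.67, 12.69 and 12.67 in control cells, with a 95% interval of the difference from -0.21 to 0.13. SULT2A1, which sulfates DHEA and bile acids, averaged 4.90 ± 0.52 in POSTN cells and 5.66 ± 0.60 in control cells (SD, n = 3 each), within background.

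The GST genes held 13 of the 37 genes above background. GSTA1 had 11.52, 9.93 and 10.10 in POSTN cells and 11.27, 9.90 and 10.00 in control cells. GSTP1, the pi-class enzyme, had 11.28, 10.79 and 11.05 in POSTN cells and 11.23, 10.85 and 10.95 in control cells. In both genes array 1 was the highest of each condition and the conditions overlapped. GSTM1, the mu-class enzyme that a common human deletion removes, had 8.01, 7.20 and 7.48 in POSTN cells and 7.46, 6.87 and 7.04 in control cells. This was the largest positive difference among the genes above background (0.43, SE 0.28, or 0.21 with the number as a block). The other GSTM1 probe set, 204550_x_at, was above background too (mean 7.01) and differed in the opposite direction (-0.15). GSTM2, GSTM4 and GSTM5 differed by -0.06, -0.31 and 0.36, each with overlap, and GSTM3 by -0.08, with a 95% interval from -0.28 to 0.12. GSTA4, which conjugates the lipid peroxidation product 4-hydroxynonenal, differed by 0.10 (SE 0.18), GSTK1, an enzyme of mitochondria and peroxisomes, by -0.11 (SE 0.13), and GSTO1 by -0.07 (SE 0.13). GSTT1, a theta-class enzyme, was within background at 3.17 ± 1.74 in POSTN cells and 2.34 ± 2.38 in control cells (SD, n = 3 each).

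Above background, the conditions did not overlap in GSTO2 and GSTZ1, both lower in POSTN cells. GSTO2 had 6.24, 6.08 and 6.26 in POSTN cells and 6.60, 6.47 and 6.60 in control cells (-0.36, SE 0.32). GSTZ1, which isomerises maleylacetoacetate in tyrosine breakdown, had 7.55, 7.54 and 7.47 in POSTN cells and 7.59, 7.88 and 7.76 in control cells (-0.23, SE 0.20). With CYP4B1 and UGT2B4, 2 of the 62 genes were higher and 2 lower without overlap, against 3.64% higher and 3.49% lower of all genes. Neither GSTO2 nor GSTZ1 passed an unadjusted p under 0.05 in limma. In the methods' t-test on log2 values, GSTO2 was with CYP4B1 among the 2 members under 0.05 unadjusted, and 0 passed after adjustment.

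The arrays were then compared by their number, with the condition as a term. On the arrays numbered 1, 9 of the 62 genes were higher and 2 were lower than on the arrays numbered 2 and 3 at an adjusted p under 0.05 (limma, Benjamini-Hochberg over 54613 probe sets), against 5.08% higher and 4.73% lower of all genes. All 11 were above background, where 8.64% of the genes were higher and 7.95% lower. Of the 37 members above background 26 had a positive and 11 a negative difference, with a median of 0.34 on the log2 scale, against 0.010 for all 11550 genes above background. In all, 3389 probe sets passed. These calls rest on the prior variance that follows the mean signal. With a prior variance without this trend 0 members and 0 probe sets passed, and with that prior on the probe sets above background alone 2 members passed, GSTA1 (adjusted p = 0.043) and CYP4V2 (adjusted p = 0.0498). What the arrays of a number share is not stated in the labels, so a shared culture, heat treatment, RNA preparation or array run cannot be told apart.

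GSTA1 had log2 signals of 11.52 (POSTN) and 11.27 (control) on the arrays numbered 1, against 9.93 and 10.10 (POSTN) and 9.90 and 10.00 (control) on the others. The 4 other arrays lay close together, and both arrays numbered 1 stood above all of them (1.41, SE 0.08, adjusted p = 4.4e-06 in limma after Benjamini-Hochberg). The difference was 1.50 among the POSTN arrays alone and 1.32 among the control arrays alone. A second GSTA1 probe set, 215766_at, differed by 0.24 (adjusted p = 0.75 in the same fit). UGT1A6 had 10.71 (POSTN) and 10.78 (control) on the arrays numbered 1, against 9.76 and 9.36 (POSTN) and 9.37 and 9.27 (control) on the others (1.31, SE 0.11). It was 1.15 higher among the POSTN arrays and 1.46 higher among the control arrays.

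CYP2B6 had 7.78 (POSTN) and 7.74 (control) on the arrays numbered 1, against 7.01 and 6.57 (POSTN) and 6.32 and 6.18 (control) on the others, a difference of 1.24 (SE 0.29). Its call was among the weaker ones (adjusted p = 0.026, limma, Benjamini-Hochberg). A probe set listed for both CYP2B6 and its pseudogene CYP2B7P, 206754_s_at, differed by 1.70. CYP4V2, a fatty acid hydroxylase of the retina and other tissues, had 8.59 (POSTN) and 8.57 (control) on the arrays numbered 1, against 7.76 and 7.61 (POSTN) and 7.77 and 7.51 (control) on the others (0.92, SE 0.17). CYP4F3 had 10.21 (POSTN) and 10.33 (control) on the arrays numbered 1, against 9.40 and 9.09 (POSTN) and 9.41 and 9.63 (control) on the others (0.89, SE 0.12). In each of these genes both arrays numbered 1 were above all 4 others. The median over the 4 CYP4V2 probe sets, of which 235719_at and 229959_at were dim, gave -0.82 in place of 0.92.

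SULT1A1 had 10.29 (POSTN) and 10.41 (control) on the arrays numbered 1, against 9.60 and 9.66 (POSTN) and 9.81 and 9.84 (control) on the others (0.62, SE 0.09). Its second bright probe set, 203615_x_at, differed by 0.85. GSTA4, GSTP1 and GSTK1 were higher on the arrays numbered 1 by 0.51, 0.34 and 0.30 on the log2 scale. Both arrays numbered 1 exceeded the 4 others in each of these, by less than a doubling. Outside the calls, UGT2A3 (1.30), UGT2B15 (0.95) and GSTT2 (0.90) had differences as large as those of several called genes, with standard errors of 0.49, 0.35 and 0.32. In these too both arrays numbered 1 exceeded the 4 others.

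GSTO1 and CYP1B1 were the 2 members lower on the arrays numbered 1. GSTO1 had 12.68 (POSTN) and 12.76 (control) there, against 12.98 and 13.07 (POSTN) and 13.06 and 13.14 (control) on the others (-0.34, SE 0.05, adjusted p = 0.0031 in limma after Benjamini-Hochberg). CYP1B1 had 13.20 (POSTN) and 13.10 (control), against 13.45 and 13.40 (POSTN) and 13.55 and 13.25 (control) on the others (-0.26, SE 0.06). A second probe set of each, 1557915_s_at for GSTO1 and 202436_s_at for CYP1B1, differed by -0.26 and was called too. The other CYP1B1 probe sets were not called. Of these 202435_s_at differed by -0.20 (adjusted p = 0.079) and the dimmer 202434_s_at by 0.70, in the opposite direction (adjusted p = 0.24, limma, Benjamini-Hochberg). CYP2A6 had a larger negative difference of -0.92 (SE 0.30), which did not pass.

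**Figure D3:**
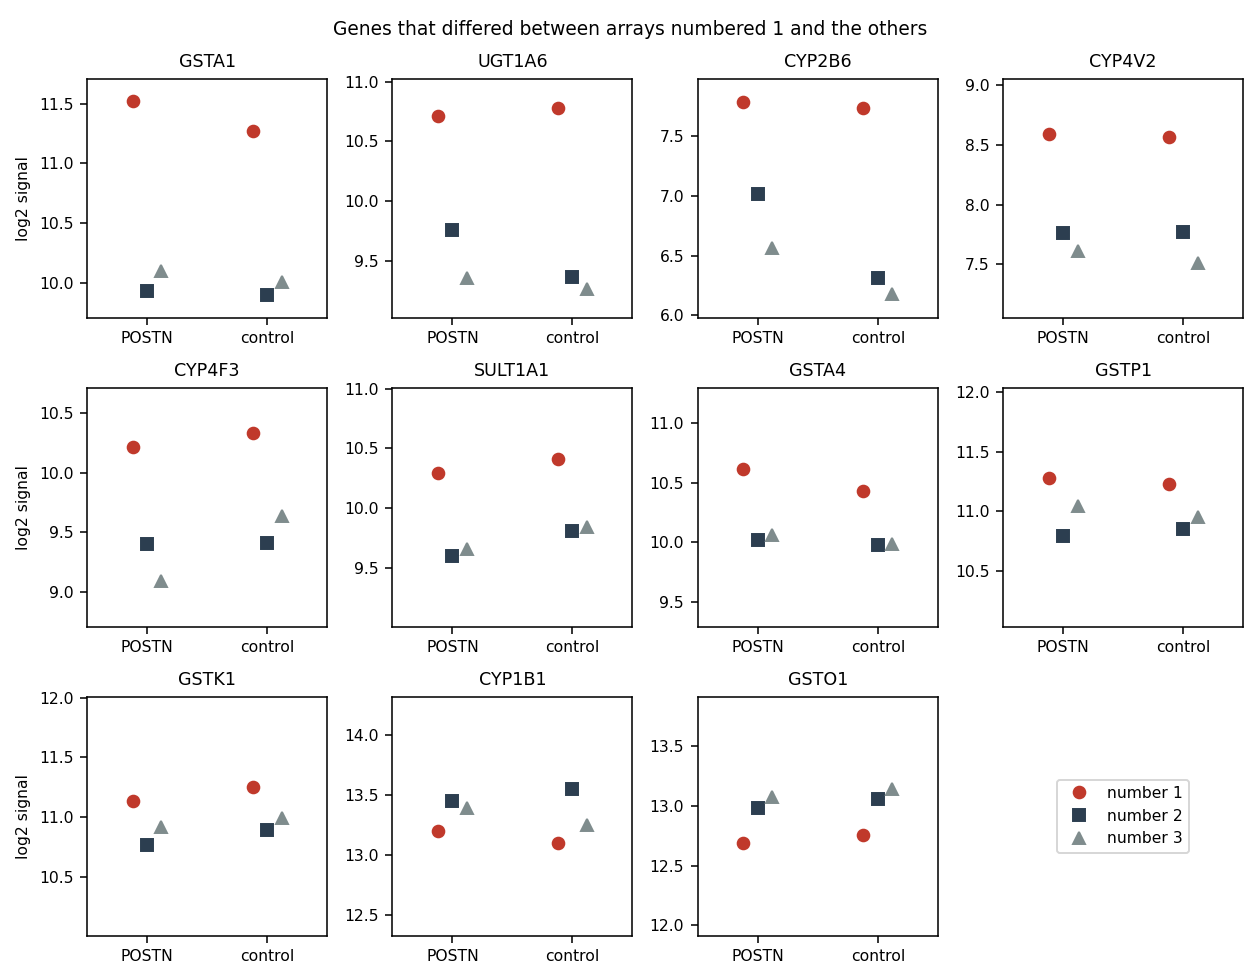
Log2 signal on each array of the 11 genes that differed between the arrays numbered 1 (circles) and those numbered 2 (squares) and 3 (triangles), POSTN left and control right in each panel, with vertical axes of equal span. In 9 panels both circles lie above the other 4 points, and in those of CYP1B1 and GSTO1 both lie below them. The genes were chosen by this same difference, which favours such a separation. Uncalled members such as GSTT2 and CYP2A6 separated by number too.

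Leaving out either array numbered 1 reduced the count of 11. Without POSTN array 1 it was 5 (GSTA1, UGT1A6, CYP4F3, SULT1A1 and GSTO1), and without control array 1 it was 6, the same genes and GSTA4. The arrays numbered 2 and 3 stood apart in fewer members. GSTA1 was lower on the arrays numbered 2 (-0.81), so that 0 members were higher and 1 lower, against 0.425% higher and 0.668% lower of all genes. GSTA1 (-0.60) and UGT1A6 (-0.84) were lower on the arrays numbered 3, so that 0 were higher and 2 lower, against 0.485% and 0.455% of all genes. Both contrasts have the arrays numbered 1 on their other side, and the 3 contrasts share arrays. The count for number 2 was 5 without POSTN array 2 and 2 without POSTN array 1 or 3, and the count for number 3 was 1 without POSTN array 3 or control array 3.

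Probe sets that list several genes of these families were kept apart. There were 20, of which 13 were above background. The 7 for the UGT1A genes, which share their last exons, were all above it, and 6 were higher on the arrays numbered 1, by 0.35 to 0.54. Of the 4 for SULT1A3 and SULT1A4, neighbouring copies that are nearly identical, 2 were higher, by 0.53 and 0.71. Of all 54613 probe sets, 3389 were called higher or lower in this contrast. The UGT1A probe sets list overlapping sets of genes, some with UGT1A6 among them, so they are not separate observations. Between POSTN and control, 0 of the 20 passed an adjusted p under 0.05, as with single genes (limma, Benjamini-Hochberg).

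The other genes of the pathway were counted in 5 lists with 79 genes, of which 71 had a probe set with a single symbol and 60 were above background. Between POSTN and control 0 of the 71 passed. Between the arrays numbered 1 and the others, 15 were higher and 5 lower, against the 5.08% higher and 4.73% lower of all genes (8.64% and 7.95% above background). Among 15 measured regulators of these enzymes 2 were higher, CEBPA, a transcription factor of differentiated hepatocytes (1.23), and MAFG, a partner of NRF2 (0.41). AHR itself was at 0.30 and NFE2L2, which encodes NRF2, at -0.08, neither called. Of the electron donors, CYB5A (0.93) and CYB5B (0.60), which encode cytochrome b5 proteins, were higher, and POR, the reductase that feeds all microsomal P450s, was at 0.09. Of the 10 cofactor genes, SLC7A11, the cystine importer for glutathione synthesis, was lower (-0.44).

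Among 29 other phase I enzymes 8 were higher and 3 lower on the arrays numbered 1. ADH1C, an alcohol dehydrogenase of liver, had 10.66 (POSTN) and 10.33 (control) there, against 5.80 and 5.44 (POSTN) and 6.30 and 5.80 (control) on the others. On the others 3 of the 4 arrays were below the background level, so with those raised to it the arrays numbered 1 were at least 21.7-fold higher (fitted log2 difference 4.66, SE 0.25). MAOB, a monoamine oxidase, had 10.26 (POSTN) and 10.31 (control), against 7.24 and 7.71 (POSTN) and 6.87 and 7.87 (control) on the others. FMO5, a flavin monooxygenase (1.46), EPHX1, the microsomal epoxide hydrolase (0.95), ALDH3A1 (0.69), ALDH3A2 (0.43), CES1 (0.41) and ALDH1A1 (0.30) were higher too. AOX1, the aldehyde oxidase (-1.11), DPYD, which breaks down 5-fluorouracil (-0.61), and NQO2 (-0.26) were lower, so the list did not move one way. Of 11 other phase II enzymes HNMT (0.75), MGST2 (0.49) and MGST3 (0.26) were higher and NNMT lower. NNMT was below the background level on both arrays numbered 1 and on average within it. Of the 4 other arrays only 2 were above the level. With the arrays numbered 1 raised to it, the others averaged 1.16-fold higher (fitted log2 difference -2.20). The lists were chosen with earlier results of these data known.

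Some markers of liver cells moved with the same number. ALB, APOH, FGB and SERPINA1 were higher on the arrays numbered 1, 4 of 13 hepatocyte and hepatoma markers, against 5.08% of all genes. The 8 markers of this list above background differed by -0.65 to 2.65, with a median of 0.042, so the list did not move as a whole. SERPINA1 was within background on average, at 7.82 (POSTN) and 7.79 (control) on the arrays numbered 1. On the others it was below the level, at 5.16 and 5.85 (POSTN) and 4.14 and 4.40 (control). The summed linear signal of the list was 53344 to 57124 there and 52221 to 57389 on the others. Most of this sum came from KRT18 and KRT8 (mean log2 signals of 15.02 and 13.96, neither called), so it says little about the 4 called markers. ALB had 7.83 (POSTN) and 7.75 (control) on the arrays numbered 1, against 5.65 and 6.12 (POSTN) and 5.84 and 6.13 (control) on the others. Of 9 stellate cell and fibroblast markers, DCN was lower (-1.0). The sum, mostly of LUM (not called) and DCN, was 3054 to 3496, against 3554 to 3924 on the others. Of 5 endothelial markers, PECAM1 was higher (0.51). The sum, mostly of PECAM1 itself, was 1432 to 1672, against 1018 to 1320 on the others. These 2 sums add little to the calls of DCN and PECAM1. Of 3 cholangiocyte markers, SOX9 was higher (1.78), with a sum, mostly of KRT19, of 6563 to 6865 there and 6640 to 7024 on the others. Of 5 macrophage and leukocyte markers 0 passed, with sums of 145 to 152 there and 149 to 243 on the others. The part of these changes in the enzyme values was not tested, and in a bulk sample fewer cells of a kind and less RNA per cell cannot be told apart.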

How the data were processed

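Total RNA of 6 samples (3 POSTN, 3 control, groups and replicate numbers from the sample titles) was hybridised to 1 array each. The authors summarised the scans with MAS 5.0 and the affy package (versions not given in the sources used here), and the deposited values are log2 signals. The mean linear signal without the highest and lowest 2% was 500 on all 6 arrays, which is how the scale was checked. MAS 5.0 subtracts mismatch signal, which makes the log2 values of dim probe sets noisy. The number of arrays limits the precision. No column was left unused.

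The 62 control probe sets were left out and 54613 were fitted by limma 3.58.1 under R 4.3.3 (eBayes with trend, so that the prior variance depends on the signal, Benjamini-Hochberg adjustment over all of them). The t-test of the study was run as an alternative, at the thresholds given in the report. Replicate numbers were compared with the number as a factor of 3 levels and the condition as a term, each number against the mean of the others. The scripts were tested on simulated data. The platform annotation gave 41091 probe sets 1 symbol, 1801 several and 11721 no symbol. Start-site sequences were taken from RefSeq.

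Named with values were, in each family, up to 10 members above background, up to 10 with the largest difference between POSTN and control whose brighter condition was above background, those called by number, and genes with textbook roles. Others named for a count were chosen after their values were seen. The members, the lists and the comparison of numbers were chosen with earlier results of these data known.

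Deviations from the condition mean were compared between POSTN and control arrays of the same number. They correlated at 0.529, 0.235 and 0.239 over the 25320 probe sets above background, and at 0.088, 0.034 and 0.025 over all. Above background, unlike numbers correlated at 0.201 (control 2 with POSTN 3) and 0.150 (control 3 with POSTN 2), near the values of like numbers 2 and 3. Unlike pairs with an array numbered 1 lay at -0.304 to -0.358. So the arrays numbered 1 went together, while a pairing of numbers 2 and 3 was not clear. Neither the labels nor the paper states a pairing. The fit reported has no term for it, and the number as a block is given as an alternative. The alternatives were quantile normalization, centring, log2(signal + 50), a filter on dim probe sets, eBayes without trend, array weights, leaving out arrays, other values per gene, probe sets without the endings _x_at and _s_at, and the number as a block.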

Additional observations from a re-analysis of the deposited data

Results flagged for a closer look

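A probe set outside the single-gene comparison, 243609_at, which lists CYP3A7, the CYP3A enzyme of fetal liver, with the read-through transcript CYP3A7-CYP3A51P, had a POSTN mean of 6.10, just above the background level of 5.98, with 2 of 3 POSTN arrays above it and all 3 control arrays below it. It had log2 signals of 6.12, 6.27 and 5.89 in POSTN cells and 3.29, 4.75 and 3.97 in control cells, with no overlap. With the control arrays raised to the background level the POSTN mean was 1.09-fold higher (fitted log2 difference 2.09, SE 0.61). It did not pass the adjustment (adjusted p = 1.0, limma, Benjamini-Hochberg). A second probe set with the same genes, 205939_at, was dimmer and differed by -0.65.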

How the results depend on the processing

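The count of 0 members between POSTN and control held under every alternative run. With the replicate block, 0 members passed, the lowest adjusted p among them was 0.97 (limma, Benjamini-Hochberg), 1 member (CYP4B1) met the study's thresholds, and the median standard error above background was 0.19 in place of 0.29, with 30 of 37 intervals within a 2-fold change. In that fit 0 of the 37 members above background had an unadjusted p under 0.05 (limma). Over all probe sets the lowest adjusted p of the paired fit was 0.25. The paired fit on probe sets above background alone, chosen after seeing the data, gave 0 members at the study's thresholds.

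The count of 1 at the study's thresholds was 2 with array weights (CYP4F22 added), 2 without both arrays numbered 1, 2 without the probe sets named _x_at or _s_at (SULT1A1 added, at 238995_at), 0 with the median over a gene's probe sets, 0 with probe sets above background only, and 1 to 3 on leaving out 1 array. The count of 11 for number 1 was 0 without the trend in the prior, 2 without the trend on probe sets above background (chosen after seeing the data), and 5 to 14 on leaving out 1 array, where the remaining array of that number was assumed to vary like the others. The count of 1 for number 2 was 0 with the median over probe sets and 0 in both fits without the trend, and 1 to 5 on leaving out 1 array. The count of 2 for number 3 was 1 with the median over probe sets, 1 without the probe sets named _x_at or _s_at, 0 in both fits without the trend, and 1 to 3 on leaving out 1 array. CYP4V2 turned to -0.82 with the median over probe sets. The cause of these moves was not tested. Without the probe sets named _x_at or _s_at, 46 of the 62 members remained, and 24 members were above background in place of 37. The median difference between POSTN and control ranged from -0.087 to 0.026. Of 706 values of 43 named members between POSTN and control, 12 moved by more than the spread between replicates. Of 174 values of the 11 genes called by number 1, 42 changed their call or direction.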

Other observations

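Other probe sets of these families met the study's thresholds between POSTN and control without a pass after adjustment, and those given by value were picked out after their values were seen. Of the 52 probe sets of single members other than the brightest, 2 were higher in POSTN cells and 2 lower. Higher were 209976_s_at of CYP2E1, by 2.23, and 238995_at of SULT1A1, by 1.13 on the log2 scale. Lower were 205998_x_at of CYP3A4, by -2.34, and 210096_at of CYP4B1, by -2.72. Among the 20 that list several genes, 2 were higher (207498_s_at, by 2.73, and 243609_at, by 2.09) and 1 lower (1554931_at of CYP4A22 and CYP4A11, by -2.10). Of all genes at their brightest probe set, 1.15% were higher and 0.915% lower at these thresholds. On all 6 arrays, 209976_s_at, 210096_at and 1554931_at were below the background level. A probe set that lists CYP2D6 with CYP2D7, 207498_s_at, had log2 signals of 5.97, 5.25 and 4.33 in POSTN cells and 2.30, 2.90 and 2.16 in control cells, all below the background level. The dimmest of the 3 SULT1A1 probe sets, 238995_at, had 6.64, 6.02 and 6.23 in POSTN cells and 5.08, 5.06 and 5.35 in control cells, while the other SULT1A1 probe sets differed by -0.015 (203615_x_at) and -0.17 (the brightest). For CYP3A4, 205998_x_at had 7.05, 3.88 and 2.48 in POSTN cells and 7.18, 6.73 and 6.54 in control cells.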
